A study of Zea mays with 8 samples.

Results

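The protein disulfide isomerase (pdi) and derlin genes of maize (Zea mays) were followed in the above-ground tissue of B73 seedlings trisomic for nearly the whole short arm of chromosome 5. Members were all probe sets whose gene has pdi or derlin followed by a number as its annotated symbol or synonym. This gave 19 probe sets of 12 genes, 9 pdi and 3 derlin genes, among 17621 probe sets and 1108 named genes on the array. Of the 12 genes, 2 lie in the duplicated segment, pdi4 (LOC606412) and derlin2 (LOC606471), and 10 lie elsewhere.

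The samples were 4 pools of wild-type siblings and 4 pools of DpDf (duplicate-deficient) siblings, with 12 seedlings in each pool, cut 11 days after planting. DpDf plants came from the translocation T5-6b in the B73 background. Nearly all of that arm is present in 3 copies, and 1 of their chromosomes 6 lacks its outermost short-arm piece, so a difference from wild type belongs to both changes together. The genotypes were told apart with an SSR marker near the breakpoint. All seedlings, wild type included, were offspring of self-pollinated DpDf plants, and each replicate number joins a wild-type and a DpDf pool of the same sowing. One seed source supplied pairs 1 and 3 and another supplied pairs 2 and 4. A pool mixes the tissues of whole shoots, and in it fewer cells of a type and less RNA per cell cannot be told apart.

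Protein disulfide isomerases are enzymes of the endoplasmic reticulum that form and rearrange disulfide bonds in newly made proteins. Derlins are membrane proteins of the same compartment, and take part in moving misfolded proteins out to the cytosol for degradation. In maize both families are best known from the endosperm, where storage proteins are folded in bulk and where mutant zeins raise the genes of the unfolded protein response. The annotation sorts the pdi genes into the classes PDIL1 (pdi3, pdi4, pdi5), PDIL2 (pdi6, pdi7, pdi8) and PDIL5 (pdi10, pdi11, pdi12), and the derlins into DER1 (derlin1) and DER2 (derlin2, derlin4). The catalytic domains of protein disulfide isomerases resemble thioredoxin.

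Each value is a probe set intensity on a linear scale with arbitrary units. It can be compared between pools but not between probe sets. Differences are DpDf minus wild type on the log2 scale, with the standard error (SE) and the 95% interval of a limma fit over 12335 probe sets. A difference was called at an adjusted p under 0.05. A probe set entered the fit when its mean log2 value reached the 30th percentile, a linear value of 27.0, and 18 of the 19 member probe sets did. Each gene is given by the brightest of its probe sets on average unless another is named, and all 12 genes had such a probe set in the fit.

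The markers matched the labelled tissue. All 9 leaf and shoot markers reached the filter, and ssu1, a small subunit gene of Rubisco, read from 13745 to 15496 over the 8 pools. Of the 12 storage protein and other grain genes, 10 stayed under the filter in the mean. The other pair, gz27 and FL1, had group means from 70.9 to 128, and the pollen gene PRO3 stayed between 13.6 and 16.7, under the filter. The summed intensity of the leaf and shoot markers ran from 54883 to 68779 in wild type and from 66057 to 76198 in DpDf. That sum follows its brightest probe sets and includes psad1 of the segment, while the dim kn1 and lg3 hardly enter it. A higher mean in DpDf was found for 7 of the 9 markers, with 0 called in limma. With the replicate block 2 were higher, psad1, a photosystem I gene of the segment (0.47, adjusted p = 0.00466), and mdh6, a malate dehydrogenase gene (0.23, adjusted p = 0.0489). The lower ones were the meristem genes kn1 (-0.29, adjusted p = 0.0387) and lg3 (-0.53, adjusted p = 0.0492). The block called 6.81% of all probe sets higher and 3.35% lower. With the RNA quality covariate described below, psad1 was at 0.28, mdh6 at 0.20, kn1 at -0.064 and lg3 at -0.34, and none passed. What part tissue makeup has in the values given here was not tested.

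Both segment members were higher in DpDf, each in all 4 pairs, and no other pdi or derlin gene was called with genotype alone. pdi4 was raised 1.46-fold (interval 1.25 to 1.71) and derlin2 1.44-fold (1.28 to 1.61), and both intervals held 1.5, the ratio of 3 copies to 2. The other 10 genes ran from 0.86-fold to 1.27-fold. Of the 12 genes, 2 were called higher and 0 lower. Over the whole array 4.87% of probe sets were called, 4.03% higher and 0.843% lower. An unadjusted p under 0.05 was found for 3 of the 12 genes and for 17.0% of probe sets. No overlap between genotypes was found for 3 of the 12 genes, all higher, and for 11.3% of probe sets. In comparison, 28 of the 51 named segment genes in the fit were called higher and 0 lower. In the segment, where 48 of the 51 genes had a higher mean and the median difference was 0.47, a rise of both members is near what its other genes show.

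pdi4 encodes a PDIL1-class isomerase. Its intensity was 295, 256, 350 and 312 in wild-type replicates 1 to 4, and 425, 406, 478 and 456 in DpDf replicates 1 to 4. The lowest DpDf pool lay above the highest wild-type pool, so the genotypes did not overlap. The log2 mean went from 8.24 ± 0.19 (SD, n = 4) to 8.78 ± 0.11, a difference of 0.55 (SE 0.100, limma adjusted p = 0.0116) with an interval from 0.32 to 0.77. That interval lay above 0 and held log2(3/2), 0.58. Replicate 3 was the highest pool and replicate 2 the lowest within both genotypes, so the pairs moved in parallel. By pair the log2 differences were 0.53, 0.66, 0.45 and 0.55.

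These values come from the _x_at set, whose probes may match other transcripts too. The pdi4 _at set with the next highest mean gave a like result. It read 261, 229, 324 and 301 in wild type and 420, 379, 500 and 385 in DpDf, again without overlap. The difference was 0.60 (SE 0.13, limma adjusted p = 0.0236), with an interval from 0.32 to 0.88. The remaining pdi4 probe set stayed between 5.87 and 7.48 in all 8 pools. It was under the filter and was not tested.

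derlin2 encodes a derlin of the DER2 class and was read by a single probe set. Its intensity was 391, 398, 339 and 391 in wild-type replicates 1 to 4 and 557, 550, 564 and 508 in DpDf replicates 1 to 4. Every DpDf pool lay above every wild-type pool. The log2 mean went from 8.57 ± 0.11 (SD, n = 4) to 9.09 ± 0.068, a difference of 0.52 (SE 0.072, limma adjusted p = 0.0031) with an interval from 0.36 to 0.68 that lay above 0 and held the copy ratio. By pair the differences were 0.51, 0.47, 0.73 and 0.38. The largest was that of replicate 3, whose wild-type pool was the lowest of its group. Without that wild-type pool the difference was 0.47.

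**Figure D1:**
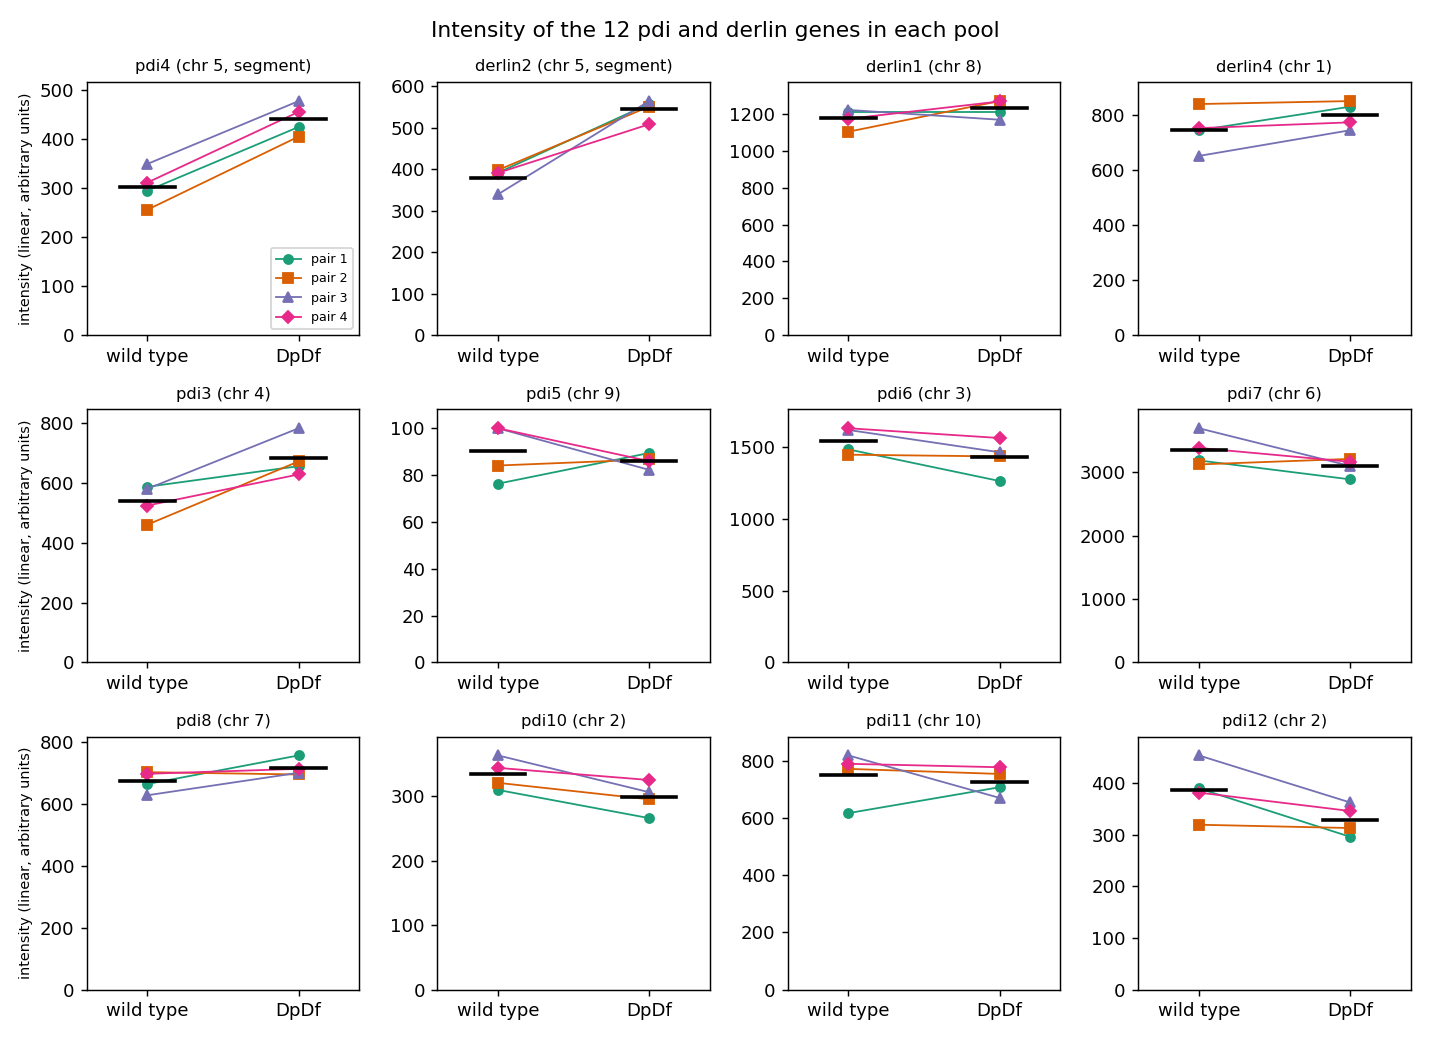
Intensity (linear, arbitrary units, axes from 0) of the 12 pdi and derlin genes in each pool, one panel per gene by the brightest of its probe sets. Lines join the wild-type and DpDf pools of 1 replicate pair and black bars are group means; pdi4 and derlin2 rise in all 4 pairs without overlap, and of the other 10 genes only pdi3 shows no overlap.

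RNA quality differed between the genotypes. The log2 signal at the 3' end minus that at the 5' end was averaged over 7 pairs of maize control probe sets. Some of these pairs carry the same gene name, actin or gapdh. The average was 0.59, 0.78, 0.56 and 0.71 in wild-type replicates 1 to 4 and 1.10, 0.90, 0.75 and 0.79 in DpDf replicates 1 to 4. Each DpDf pool exceeded the wild-type pool of its number, while the groups overlapped. With that 3'-minus-5' value as a limma covariate, pdi4 differed by 0.71 (adjusted p = 0.0226) and derlin2 by 0.45 (adjusted p = 0.0575), which no longer passed. The pdi4 _at set was at 0.74 (limma adjusted p = 0.0717) and no longer passed either. The members' count was then 1 of 12, and the share of probe sets called was 2.51%, with 2.26% higher and 0.243% lower. The measure and the genotype are partly confounded in 8 pools, and their shares in the difference cannot be told apart.

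The rises of both genes were present in each seed source. pdi4 differed by 0.49 in the source of pairs 1 and 3 and by 0.61 in that of pairs 2 and 4, and derlin2 by 0.62 and 0.42. An interaction of genotype with seed source was called for 0 of the 12 genes and for 0.0% of all probe sets in limma. At an unadjusted p under 0.05 it was found for 0 of the 12 genes and for 2.0% of probe sets. With 2 pairs per source, this does not show that the sources acted alike.

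Within the segment pdi4 and derlin2 lie far apart. Among the 51 measured segment genes, counted from the tip of the short arm, derlin2 was number 4 and pdi4 number 45, near opposite ends. By size of the difference they ranked 16 and 11. The measured neighbours of derlin2, LOC542205 and gpm645, differed by 0.48 and 0.32. Those of pdi4, PLC and ivr2, differed by 0.48 and 0.31.

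The segment holds another gene of protein folding in the endoplasmic reticulum, bip1, which encodes a BiP chaperone of the Hsp70 family and lies 3 measured genes from pdi4. bip1 read 3760, 3342, 3470 and 3878 in wild type and 3984, 3008, 4213 and 3986 in DpDf. The genotypes overlapped and replicate 2 was lower in DpDf. The difference was 0.063 (SE 0.10, limma adjusted p = 0.813), and its interval, from -0.17 to 0.29, held 0 and lay below the copy ratio. It ranked 48 of the 51 segment genes. bip2, its relative on chromosome 4, differed by -0.084 (SE 0.064, limma adjusted p = 0.558). Whether the probe set of either bip gene also reads transcripts of the other was not tested.

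In the fit with genotype alone, the 10 genes outside the segment were not called in either direction. Their median difference was -0.047, against -0.023 over all probe sets tested. The mean was higher in DpDf for 4 of them and lower for 6, and for 9 the interval held 0. Of all 12335 probe sets tested, 5284 had a higher mean. With the replicate block the intervals of pdi10 (-0.31 to -0.027) and pdi12 (-0.40 to -0.049) lay below 0. That of pdi3 lay above 0, and pdi3 was then called higher (limma adjusted p = 0.0225). Blocked, pdi10 and pdi12 were still not called (limma adjusted p = 0.129 and 0.107). Their differences with the RNA quality covariate in place of the block were -0.034 and 0.027. Without the block, all 10 intervals lay below log2(3/2), with an upper limit of 0.57 for pdi3. In that fit a rise in proportion to the segment's copy number was outside the interval of each. With the RNA quality covariate pdi3 differed by 0.51 (limma adjusted p = 0.0773). Its interval was then 0.23 to 0.79 and held log2(3/2). By replicate pair, the mean of the 10 was -0.0059, 0.064, -0.082 and -0.018, and the mean of pdi4 and derlin2 was 0.52, 0.57, 0.59 and 0.46. The gap between these means was 0.52, 0.50, 0.67 and 0.48, with a mean of 0.55 ± 0.088 (SD, n = 4 pairs). The segment value exceeded the other in every pair. It carries no test, since the members were chosen with earlier results known.

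**Figure D2:**
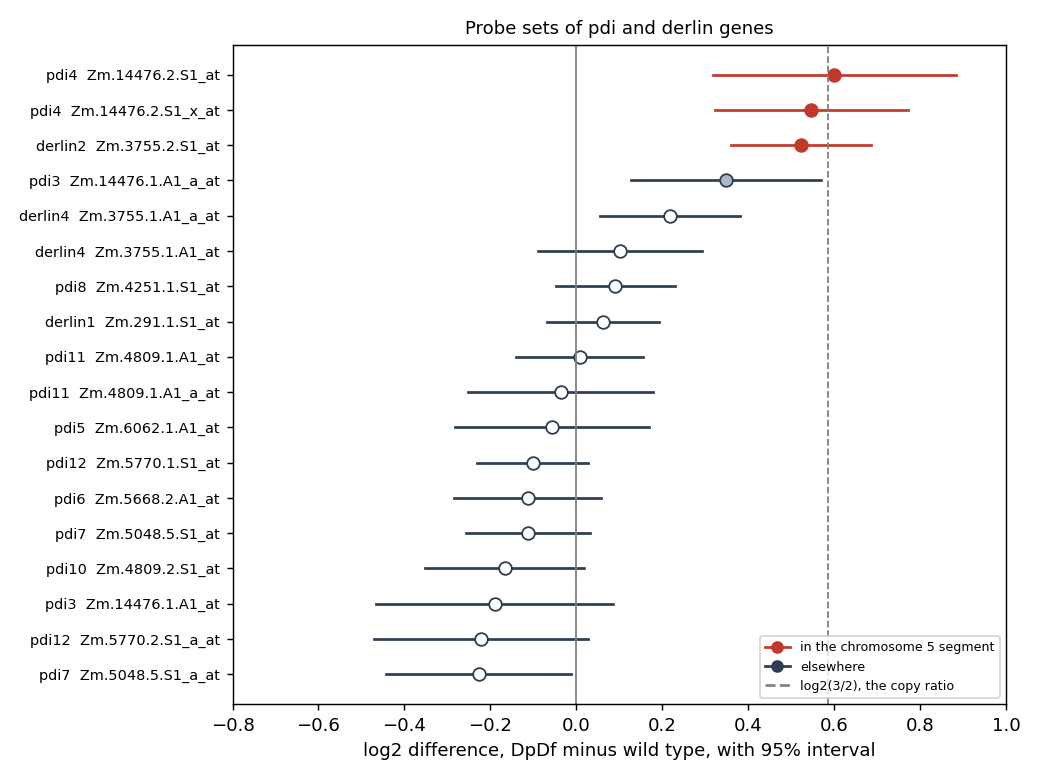
Log2 difference (DpDf minus wild type) with its 95% limma interval for the 18 member probe sets in the fit. Filled points passed the threshold, the grey-filled point (the pdi3 _a_at set) did not pass without the block and passed with it, and open points passed in neither of these fits; the dashed line is log2(3/2). The intervals of the 3 segment probe sets hold the dashed line and those of the 15 others lie left of it.

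Within the PDIL1 class, pdi3 and pdi5 are the members outside the segment. pdi3 (LOC606411, chromosome 4) read 587, 460, 580 and 524 in wild type and 656, 672, 782 and 628 in DpDf with its _a_at set. These groups did not overlap, a pattern that 6.52% of all probe sets showed in the higher direction. The difference was 0.35 (SE 0.098, limma adjusted p = 0.0885). A replicate block took that p to 0.0225. With seed source as a covariate the adjusted p was 0.0301. Under the block 3 of the 12 members were called, all higher, against 10.2% of all probe sets, 6.81% higher and 3.35% lower.

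The other pdi3 probe set had a lower mean in DpDf and was not called. Its _at set read 269, 247, 341 and 302 in wild type and 248, 213, 292 and 262 in DpDf, lower in all 4 pairs, with overlap between the groups. Its difference was -0.19 (SE 0.12, limma adjusted p = 0.483; blocked, 0.0819). Without the block its interval, from -0.47 to 0.086, held 0. With the RNA quality covariate this set was at -0.013 (limma adjusted p = 0.997). So the direction for pdi3 depends on the probe set and none is given for the gene. The IDs of the pdi3 and pdi4 probe sets begin with the same cluster number, and in the maker's naming the ending _a_at marks a set whose probes match several transcripts grouped as variants of a gene. Whether the pdi3 _a_at set also reads pdi4 transcripts was not tested, and probe sequences were not used here.

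A like arrangement held for derlin2 and derlin4 (LOC606472, chromosome 1), whose probe sets also share a cluster number. The derlin4 _at set read 744, 839, 651 and 752 in wild type and 829, 850, 744 and 773 in DpDf. The groups overlapped although DpDf was higher in each pair, and the difference was 0.10 (SE 0.085, limma adjusted p = 0.597). The _a_at set read 432, 444, 380 and 434 in wild type and 473, 504, 522 and 466 in DpDf, without overlap. Its difference was 0.22 (SE 0.072, limma adjusted p = 0.153), with an interval from 0.056 to 0.38, above 0 and below the copy ratio. Wild-type replicate 3 was the lowest wild-type pool in both derlin4 sets and in derlin2. In DpDf, replicate 3 was the highest and replicate 4 the lowest pool for derlin2 and for the _a_at set of derlin4, while for the other derlin4 set replicate 2 was the highest and replicate 3 the lowest. The pdi3 sets followed another order. The pdi3 _at set had the same highest and lowest pools as pdi4 in both genotypes, replicate 3 and replicate 2. The pdi3 _a_at set shared with pdi4 the lowest wild-type and the highest DpDf pool, but its highest wild-type pool was replicate 1 and its lowest DpDf pool replicate 4. In both clusters the _a_at set of the gene outside the segment had a larger difference than its other set.

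**Figure D3:**
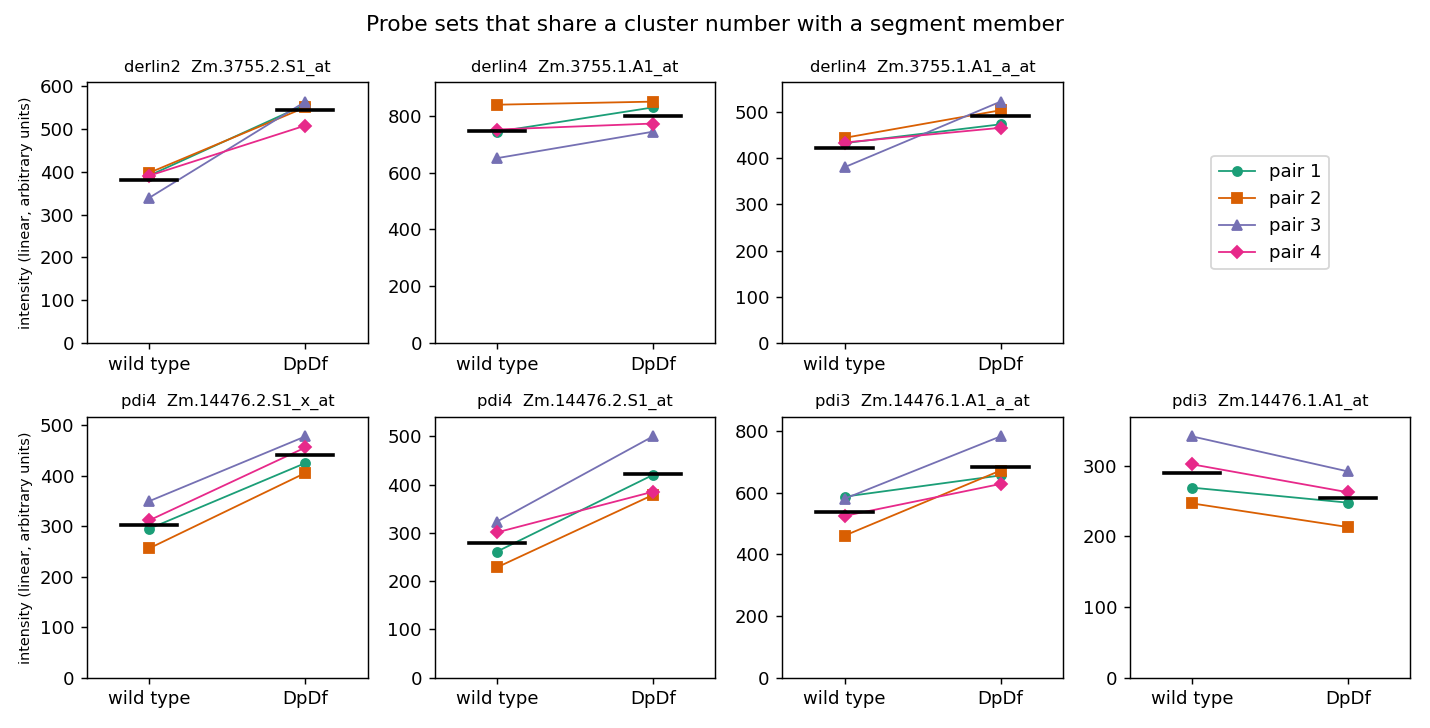
Intensity (linear, arbitrary units, axes from 0) by pool for the probe sets of derlin2 and derlin4 (top row) and of pdi4 and pdi3 (bottom row), with lines joining replicate pairs and black bars for group means. The segment genes derlin2 and pdi4 rise in all pairs; the _a_at sets of derlin4 and pdi3 are higher in DpDf without overlap, and the remaining pdi3 set is lower in every pair.

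pdi5 (LOC606418, chromosome 9) read 76.2, 84.0, 99.9 and 99.9 in wild type and 89.3, 86.6, 82.1 and 85.9 in DpDf. Replicates 1 and 2 were higher in DpDf and replicates 3 and 4 lower, with overlap. The difference was -0.057 (SE 0.10, limma adjusted p = 0.826).

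None of the 3 PDIL2 genes passed the test. pdi7 (LOC606414, chromosome 6) read 3183, 3120, 3690 and 3380 in wild type and 2885, 3207, 3097 and 3162 in DpDf, lower in 3 of 4 pairs, and differed by -0.11 (SE 0.064, limma adjusted p = 0.418). Its _a_at set differed by -0.23 (SE 0.096, limma adjusted p = 0.265), lower in all 4 pairs. That set was at 0.019 with the RNA quality covariate (limma adjusted p = 0.989). pdi6 (LOC606413, chromosome 3) read 1482, 1445, 1617 and 1629 against 1262, 1433, 1462 and 1561. That was lower in every pair but with overlap, and the difference was -0.11 (SE 0.076, limma adjusted p = 0.503). pdi8 (LOC606479, chromosome 7) read 664, 703, 628 and 697 against 757, 695, 700.5 and 713, a difference of 0.091 (SE 0.062, limma adjusted p = 0.508).

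The 3 PDIL5 genes all had a lower mean in DpDf by their representative sets and were not called. pdi12 (LOC606417, chromosome 2) read 390, 319, 454 and 382 in wild type and 296, 313, 362 and 346 in DpDf, lower in all 4 pairs. It differed by -0.22 (SE 0.11, limma adjusted p = 0.351). The pdi12 _at set differed by -0.10 (SE 0.057, limma adjusted p = 0.414). There the genotypes did not overlap, as for 4.8% of all probe sets in the lower direction. pdi10 (LOC606416, chromosome 2) read 310, 321, 363 and 344 against 266, 295, 306 and 325, also lower in all 4 pairs, and differed by -0.17 (SE 0.083, limma adjusted p = 0.347). pdi11 (LOC606478, chromosome 10) read 616, 771, 818 and 789 against 707, 753, 670 and 777. It was higher in DpDf in replicate 1 and lower in the other pairs, and its sets differed by -0.037 and 0.0080 (limma adjusted p = 0.889 and 0.969).

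Being lower in all 4 pairs, as 3 of the 12 genes were (pdi6, pdi10 and pdi12), was seen for 18.1% of all probe sets, and being higher in all 4, as for pdi4, derlin2, derlin4 and the _a_at set of pdi3, for 15.0%.

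derlin1 (LOC100037763, chromosome 8), the DER1-class member, read 1212, 1103, 1221 and 1173 in wild type and 1212, 1269, 1168 and 1267 in DpDf. Pools of the 2 genotypes were interleaved, replicate 1 was the same in both, and the difference was 0.062 (SE 0.058, limma adjusted p = 0.642), with an interval from -0.068 to 0.19.

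Another pair of family genes on the chip fell outside the naming rule. pdi (LOC606409, chromosome 4), annotated as PDIL1-1 and listed without a number, read 2302, 1848, 2414 and 2345 in wild type and 1642, 1493, 1950 and 1606 in DpDf. It was lower in every pair, and the single overlap was between wild-type replicate 2 and DpDf replicate 3. The difference was -0.41 (SE 0.10, limma adjusted p = 0.0583). With a replicate block it was called lower (adjusted p = 0.00374). It passed as well without wild-type replicate 2 (adjusted p = 0.0154) or DpDf replicate 3 (adjusted p = 0.0337), and with seed source as a covariate (adjusted p = 0.0244). These 2 pools are the overlapping ones. Without any other single array pdi did not pass (limma adjusted p up to 0.170). After adjustment for the RNA quality value it was -0.25 (limma adjusted p = 0.646). PDIL5-1 (LOC606415, chromosome 1) differed by 0.12 (SE 0.076, limma adjusted p = 0.491).

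Partners of these proteins in the endoplasmic reticulum were read from a list of 5 genes, 1 of them (bip1) in the segment. Of the 5, 0 were called in limma, 4 had a lower mean in DpDf and the median difference was -0.14. With the replicate block 1 was lower, against 3.35% of all probe sets. That gene was crt2, which encodes calreticulin, a calcium-binding chaperone of glycoproteins. It read 11310, 8064, 10724 and 9800 in wild type and 7703, 6939, 8810 and 8506 in DpDf, lower in each pair, and differed by -0.31 (SE 0.11, limma adjusted p = 0.173; blocked, 0.0152). Its other probe set differed by -0.22 (limma adjusted p = 0.22; blocked, 0.0128). Without wild-type replicate 2, the lowest wild-type pool, crt2 passed without a block (-0.41, limma adjusted p = 0.0305). Leaving out any other single array gave no call (limma adjusted p up to 0.374). With the 3' to 5' covariate the crt2 difference was -0.096 (limma adjusted p = 0.948). CNX, a symbol used for the membrane-bound relative calnexin, differed by -0.22 (SE 0.079, limma adjusted p = 0.189), lower in all 4 pairs. The other tested CNX sets differed by -0.17, lower in all 4 pairs, and by -0.086, lower in 3. With the 3' to 5' covariate CNX was at -0.12 (limma adjusted p = 0.891). dad1, a subunit gene of the oligosaccharyltransferase, differed by -0.14 (SE 0.069, limma adjusted p = 0.354).

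The list of thioredoxin-fold genes held 5 genes, of which 4 were tested and 0 were called, in limma with or without the replicate block. Their differences ran from 0.0027 to 0.12, with a median of 0.066. trxh1, an h-type thioredoxin gene, differed by 0.068 (SE 0.055) and qsox1, encoding a sulfhydryl oxidase, by 0.065 (SE 0.071).

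Among 7 genes of vesicle traffic and protein delivery, 1 was called higher and 0 lower in limma, against 4.03% and 0.843% of all probe sets, with a median of -0.065. arf1, a small GTPase gene of the segment, rose by 0.27 (SE 0.040, limma adjusted p = 0.00394). Its intensity ran from 6778 to 7387 in wild type and from 8415 to 8680 in DpDf, without overlap. The interval, 0.18 to 0.36, lay below the copy ratio. With the 3' to 5' covariate arf1 differed by 0.23 (SE 0.054, limma adjusted p = 0.0728). With the replicate block 2 of the 7 were higher and 2 lower, against 6.81% and 3.35% of all probe sets. The further higher one was SRP9, of the signal recognition particle (0.31, limma adjusted p = 0.0964; blocked, 0.0339). The lower ones were copz1, a coatomer subunit gene (-0.25, limma adjusted p = 0.212; blocked, 0.0495), and ypt2, a Rab GTPase gene on the long arm of chromosome 5 (-0.25, limma adjusted p = 0.179; blocked, 0.0224). With the 3' to 5' covariate copz1 was at -0.083 (limma adjusted p = 0.956) and ypt2 at -0.072 (limma adjusted p = 0.955). SRP9 was then at 0.30 (limma adjusted p = 0.499).

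**Figure D4:**
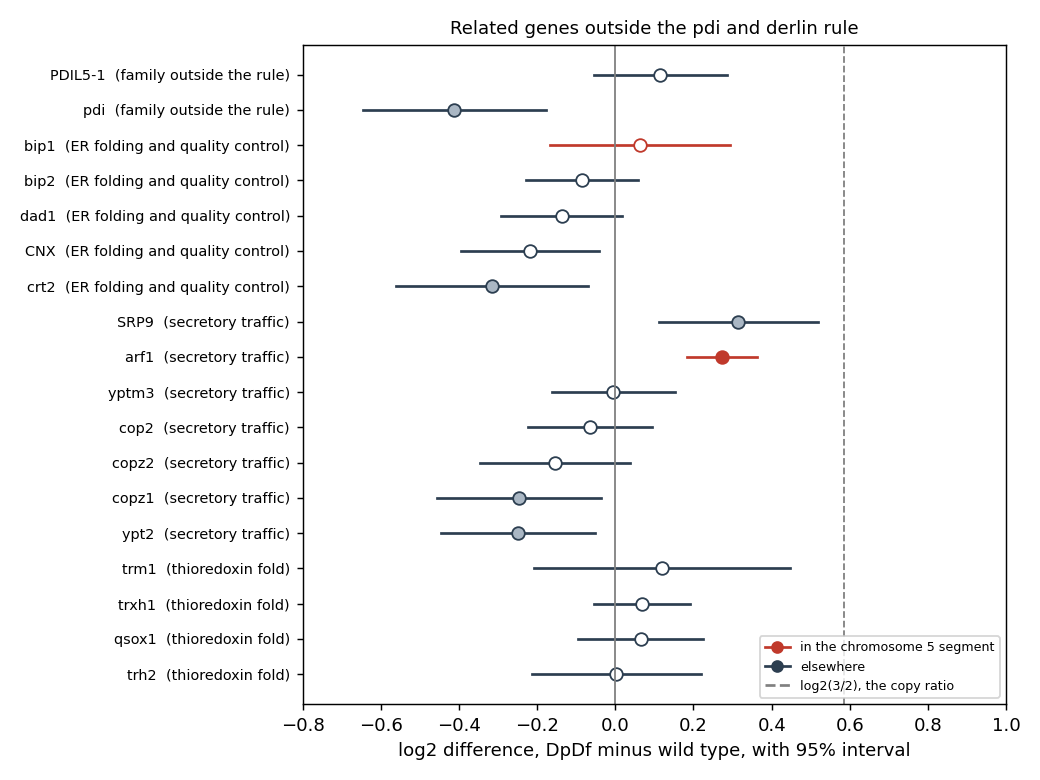
Log2 difference (DpDf minus wild type) with its 95% limma interval for tested genes related to the pdi and derlin members, labelled by list; red marks genes of the segment. Filled points passed the threshold, grey-filled points did not pass without the block and passed with it, open points passed in neither of these fits, and the dashed line is log2(3/2). bip1 lies near 0, arf1 lies between 0 and the dashed line, and pdi and crt2 have the lowest differences.

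The named genes most like pdi4 and derlin2 were sought among 907 other tested genes by Pearson's r of log2 intensity over the 8 pools, as a description. Pools of both genotypes enter this r, so the genotype difference shapes it. For pdi4 the closest were PLC, its neighbour in the segment (r = 0.97), HMT-3 on chromosome 3 (0.97) and sbe1, a starch branching enzyme gene of the segment (0.94). For derlin2 all 3 lay in the segment: cdpk1 (0.985), the opaque2-related gene ohp2 (0.97) and arpp3, an acidic ribosomal protein gene (0.97). With each genotype's mean removed, the closest to pdi4 were HMT-3 (0.99), nfd101 (0.97) and yab10 (0.96), and to derlin2 LPE1 (0.93), Cab-m7 (0.86) and isr (0.86). None of these 6 was in the segment by the annotation, Cab-m7 being unplaced, and none was called. Of all 919 named genes in the fit, 51 lay in the segment, 41 were called higher and 10 lower. Finding none among 6 genes is therefore near the share over all named genes. Each r was picked as among the highest of 907 over 8 pools, and such a pick alone can give high values.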

How the data were processed

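The authors deposited 1 linear intensity for each probe set on each of 8 arrays. The submitters' processing notes name MAS5 without its role or version, and the labels add no scaling target. Array medians ran from 135.9 to 142.4, so log2 was taken with no further scaling. Gene names are those of the platform annotation, and gene numbers were looked up in the RefSeq table for Zm-B73-REFERENCE-NAM-5.0 for current symbols, chromosomes and gene order. Segment genes are those of chromosome 5 below a position limit set here on that assembly, and the breakpoint itself was not mapped. 113 array controls were left out.

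limma 3.58.1 in R 4.3.3 (lmFit, eBayes with trend) was fitted with genotype alone over 12335 probe sets, with Benjamini-Hochberg adjustment, and tested on simulated data. Same-numbered pools share a sowing, per the labels, and their deviations from group means correlated at 0.36, 0.51, 0.56 and 0.33, so the replicate block was run as the paired alternative. Other alternatives covered scaling, pseudocount, filter, trend, seed source, the 3' to 5' covariate and single left-out arrays. The number of arrays limits precision. Each p-value sets the genotype difference against the spread between pools, which limma moderates over probe sets.

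All members are named. Of the related lists, genes called with or without the block and the 2 with the smallest p are named. bip1, bip2, dad1 and the segment neighbours were named after their values were seen. List members were taken from the annotation by symbol and trimmed by hand to the named roles. Members and lists were chosen with earlier results of these data known. Detection calls and sequences were not used here.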

Additional observations from a re-analysis of the deposited data

Results flagged for a closer look

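In derlin2, the wild-type pool of replicate 3 stood apart from its group at an intensity of 339, with the other wild-type pools between 391 and 398. The gap to the nearest pool, as a share of the group's range, was over Dixon's 95% critical value for 4 samples. In all 25 groups of 4 values were examined, both genotypes of each of the 12 genes and the gap between segment and other members by pair. Of these 1 held such a value, and chance marks about 1 in 20. Without that pool derlin2 differed by 0.47 and still passed in limma (adjusted p = 0.00771).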

How the results depend on the processing

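By its _x_at set pdi4 kept its direction and its call in all 18 alternatives (0.47 to 0.71, limma adjusted p from 0.00133 to 0.0435). Its _at set lost the call with the RNA quality covariate (0.74, limma adjusted p = 0.0717). derlin2 kept its direction and its call in 16 of 18. It lost the call with the RNA quality covariate (0.45, adjusted p = 0.0575) and with that covariate and the replicate block together, an alternative chosen after seeing the data (0.49, adjusted p = 0.0661). Called genes numbered 2 of 12, 3 with the replicate block or with seed source as a covariate, 1 with the RNA quality covariate, blocked or not, and 2 without any single array. Leaving out 1 array gave 0.47 to 0.62 for pdi4, 0.47 to 0.56 for derlin2 and 0.52 to 0.57 for the gap between segment and other members. That gap ran from 0.52 to 0.61 over 20 alternatives. With the RNA quality covariate, derlin4 was -0.051, pdi6 0.027, pdi8 -0.00035 and pdi12 0.027, each turned in sign. pdi11 ran from -0.13 to 0.0087 without 1 array, above 0 without the replicate 3 pool of wild type (0.0087) or that of DpDf (0.0018). The cause was not tested, and none of these genes was called in either fit. The replicate block changed the call of pdi3 alone among members, and of pdi, crt2, copz1, ypt2 and SRP9 among related genes, with the 4 leaf and shoot genes named above. Over all probe sets it raised the calls from 601 to 1253, and the covariate lowered them to 309. Intensities near the filter value limit what can be said of dim probe sets, such as the dimmest pdi4 set.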
